A study of Mus musculus with 18 samples.

Results

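The C-type lectin receptors that myeloid cells carry were described at the RNA level in neutrophils, the short-lived phagocytes made in bone marrow, from 6 tissues of the mouse. The members were the 8 listed genes Clec4d, Clec4e, Clec4n, Clec7a, Clec5a, Clec4a2, Clec12a and Clec2d, found by matching their symbols to the Ensembl identifiers of the deposited table, and they make up 8 of its 32328 genes. All 8 passed the filter on low values, which asked for at least 1 scaled count in at least 3 libraries. The groups were neutrophils from bone marrow (BM), Spleen, Lung, Intestine (colon), Skin (ear) and Blood, with 3 libraries each and 18 in all. Every group was sorted for CD45, CD11b and Ly6G from C57BL/6 mice of 8 to 12 weeks, with no genetic change or treatment named, and Blood served as the reference for the other tissues. Replicates are not stated to come from separate mice, so p-values here reflect only how far these libraries spread, in part perhaps for technical reasons.

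C-type lectin receptors bind sugars, lipids and other structures on microbes and dying cells. Activating members reach the kinase Syk, either directly or through adaptors with an activation motif, and Syk signals on through Card9, Bcl10 and Malt1 to NF-kappaB and cytokine genes. Inhibitory members carry a motif that recruits the phosphatases encoded by Ptpn6 and Ptpn11. Neutrophils use these receptors to sense fungi and mycobacteria and to restrain their own activation.

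All members lie on chromosome 6 (mm10, GENCODE vM21 positions). Clec4a2 (chr6:123106428-123143999), Clec4n (chr6:123229843-123247021), Clec4d (chr6:123262111-123275265) and Clec4e (chr6:123281789-123289870) follow one another, and Clec4d and Clec4e are 6.5 kb apart. Clec2d (chr6:129180615-129186534), Clec12a (chr6:129342691-129365303) and Clec7a (chr6:129461591-129472779) form a second run, while Clec5a (chr6:40574894-40585821) stands alone. GENCODE types Clec7a as a polymorphic pseudogene and the others as protein coding. RefSeq promoters (GRCm38.p6, 250 bases before to 50 after the start) were found for 7 members and are printed for Clec4d, Clec4e and Clec7a, whose levels moved most alike over the libraries, and for Clec5a, which had another tissue order. Capitals mark matches on either strand to GAGGAA, a core of PU.1-type ETS sites, TTGCNNAA, a C/EBP-type site, or TATAAA. The windows are chr6:123261857-123262156 (plus strand) for Clec4d, chr6:123289822-123290121 (minus) for Clec4e, chr6:129472730-129473029 (minus) for Clec7a and chr6:40585756-40586055 (minus) for Clec5a.
Clec4d: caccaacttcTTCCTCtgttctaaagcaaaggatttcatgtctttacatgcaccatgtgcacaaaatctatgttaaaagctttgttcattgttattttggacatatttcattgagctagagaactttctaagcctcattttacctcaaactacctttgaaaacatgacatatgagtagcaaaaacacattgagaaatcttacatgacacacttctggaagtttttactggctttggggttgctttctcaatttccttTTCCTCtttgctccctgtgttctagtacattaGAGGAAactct
Clec4e: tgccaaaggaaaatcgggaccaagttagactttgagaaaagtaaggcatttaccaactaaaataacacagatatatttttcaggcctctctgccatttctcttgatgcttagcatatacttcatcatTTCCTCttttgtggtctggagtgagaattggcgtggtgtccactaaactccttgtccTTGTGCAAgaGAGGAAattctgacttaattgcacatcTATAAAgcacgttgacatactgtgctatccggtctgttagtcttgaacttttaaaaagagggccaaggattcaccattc
Clec7a: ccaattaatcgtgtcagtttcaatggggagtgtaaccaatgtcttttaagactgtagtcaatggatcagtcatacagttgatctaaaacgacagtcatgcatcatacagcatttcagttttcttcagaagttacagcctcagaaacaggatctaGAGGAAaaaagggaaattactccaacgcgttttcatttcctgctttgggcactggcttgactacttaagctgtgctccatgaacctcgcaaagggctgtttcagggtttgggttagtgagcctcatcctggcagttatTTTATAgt
Clec5a: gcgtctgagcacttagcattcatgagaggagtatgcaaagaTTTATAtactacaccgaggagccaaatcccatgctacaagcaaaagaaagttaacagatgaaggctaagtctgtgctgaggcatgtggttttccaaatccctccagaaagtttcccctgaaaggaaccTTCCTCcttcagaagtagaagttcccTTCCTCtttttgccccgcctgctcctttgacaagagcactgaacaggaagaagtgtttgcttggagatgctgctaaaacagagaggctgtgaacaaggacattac
The ETS core was present in 5 of the 7 member promoters, those of Clec4d, Clec4e, Clec7a, Clec5a and Clec12a, and in 28.3% of 32851 RefSeq promoters of the same length. The C/EBP-type letters were found in Clec4e and Clec12a, against 10.8% of all promoters, and the AP-1 letters TGANTCA in Clec4a2 and Clec12a, against 7.81%. TATAAA was found in 4 member promoters and in 13.6% of all promoters, at position -29 from the start in Clec4e, -161 in Clec4a2, -209 in Clec5a and 43 in Clec7a. Positions count from the RefSeq start, which lies 16262 bases from the GENCODE gene start in Clec4a2 and 7553 in Clec12a. For Clec7a another RefSeq window, chr6:129472736-129473035, was also searched and held GAGGAA but not TATAAA. The NF-kappaB motif matched none of the 7 and 0.411% of all. Such matches describe letters and were not tested as sites.

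Values are scaled counts: estimated reads of a gene per 1e6 of the effective library, with no division by gene length. Estimated counts totalled 2935582 to 12087938 per library. The sorted identity was checked with 11 neutrophil markers, whose summed level was 44350 to 59168 scaled counts in BM, 11846 to 16176 in Spleen, 5746 to 17817 in Lung, 909.8 to 1396 in Intestine and 1136 to 18268 in Skin, against 31210 to 32622 in Blood. All 11 markers were lower in Intestine and in Skin than in Blood (median log2 differences -4.73 and -3.03). Of the same markers 2 were called lower in Lung, none in Spleen and none in BM, with medians of -2.06, -1.88 and 0.82, and 1 was called higher in BM. Ly6g, the gene of the antigen used in the sort, stood at 3.14, 0.41 and 0.346 scaled counts in Intestine and 0.221, 0.216 and 26.9 in Skin, against 102, 237 and 69.3 in Blood. The 0.216 of Skin replicate 2 is the lowest value in its library, which allows up to 1.51 scaled counts. Markers of monocytes and macrophages summed to 1050 to 2021 in Intestine and 1107 to 4661 in Skin, against 615 to 1047 in Blood. Mrc1, whose own values are given below, is part of these sums. Of the 12 markers 4 were called higher in Intestine, and 5 higher and 1 lower in Skin. Over all genes 15.8% were called higher in Intestine, and 5.64% higher and 10.4% lower in Skin. Fibroblast markers summed to 5108 to 9757 in Intestine and 1084 to 4120 in Skin, against 29.6 to 57.0 in Blood. B cell markers summed to 2225 to 4133 in Spleen, against 78.6 to 144 in Blood. Transcripts of mitochondrial genes took 8.24 to 23.2% of Intestine reads, and 12 genes sharing sequence with Gm10800 took 26.4 to 54.7% of Skin reads, against 0.209 to 0.229% and 1.07 to 4.75% in Blood. A refit without the mitochondrial and Gm10800-related genes, rescaled, left the counts of called receptors given below unchanged. These were 5 by the F test and, against Blood, 4 in Intestine, 2 in Skin and 0 in the other tissues. Any further part of these genes, and the part of other cell types, in the results below was not tested.

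The levels of 5 receptors, Clec4d, Clec4e, Clec7a, Clec5a and Clec12a, differed between the 6 tissues by limma's F test, at an adjusted p under 0.05. Over all 16157 genes tested, 31.9% passed the same test. The adjusted p was 0.0749 for Clec4a2, 0.529 for Clec4n and 0.635 for Clec2d. In these bulk libraries fewer cells of a type and less RNA per cell cannot be told apart. The spread of the 6 tissue means on the log2 scale was 5.14 for Clec4d and 4.88 for Clec12a, larger than for 94.8% and 93.6% of all tested genes, but only 1.19 for Clec4n, larger than for 10.8%. With the 3 Intestine libraries left out, 1 receptor, Clec12a, still passed (adjusted p = 0.00239). Over all genes the number passing fell as well, from 5159 to 2685. With Intestine and Skin both left out 4 passed, Clec4e, Clec5a, Clec4a2 and Clec12a (adjusted p = 0.0192, 0.000799, 0.00271 and 0.00443). With the 3 Skin libraries left out, 6 passed, Clec4a2 among them (adjusted p = 9.99e-05).

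**Figure D1:**
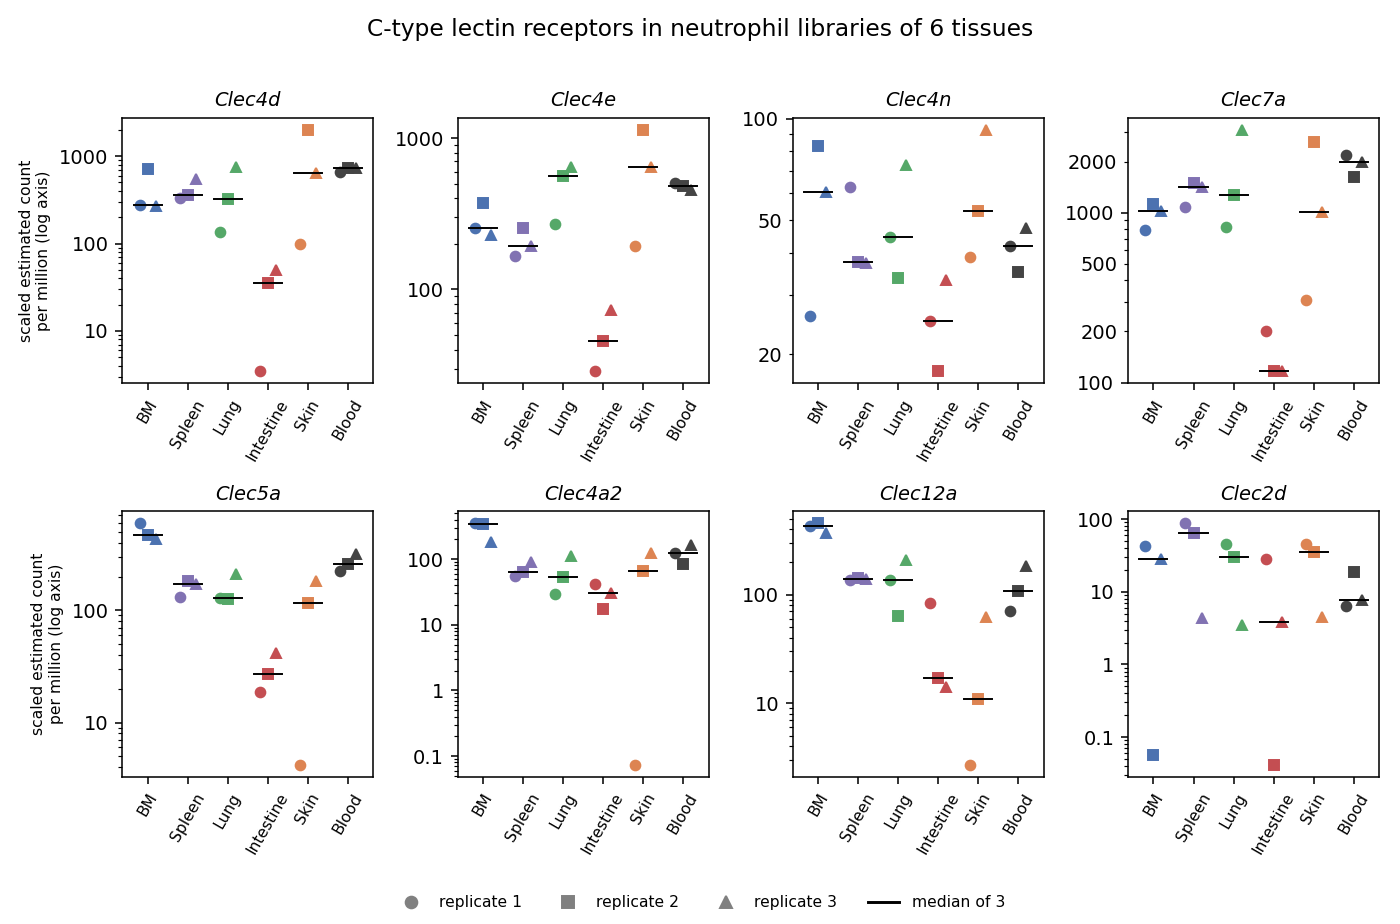
Scaled counts per 1e6 (log axis) of the 8 receptor genes in each of the 18 libraries, with 1 symbol per replicate and a line at the median of 3. Clec4d, Clec4e and Clec7a are lowest in Intestine, Clec5a, Clec4a2 and Clec12a are highest in BM, and Skin replicate 1 lies below the other 2 Skin libraries for 7 of the 8 genes.

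Clec7a encodes Dectin-1, the receptor for fungal beta-glucans, which recruits Syk without a separate adaptor. It stood at 786, 1125 and 1026 scaled counts in BM, 1079, 1499 and 1411 in Spleen, and 821, 1263 and 3072 in Lung (replicates 1, 2 and 3 in that order here and below). It stood at 202, 118 and 117 in Intestine and 307, 2603 and 1013 in Skin, against 2179, 1613 and 1981 in Blood. The 3 Intestine libraries lay below all other libraries, and Skin spanned an 8.49-fold range. Clec7a fell in Intestine relative to Blood, with a log2 difference of -3.76 (SE 0.55, limma adjusted p = 4.66e-05). It was also lower in Intestine than in BM, Spleen, Lung and Skin (limma adjusted p = 0.000815, 0.000266, 0.000527 and 0.00186 in that order). From Blood, the highest, the order ran through Lung, Spleen, BM and Skin to Intestine, and no neighbours before Skin and Intestine differed beyond their spread. Divided by transcript length, Clec7a was the highest of the 8 receptors in every tissue other than Skin, with 845 ± 126 scaled counts per kb in Blood (SD, n = 3).

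Clec4e encodes Mincle and Clec4d encodes MCL, a pair of receptors for mycobacterial glycolipids that signal through the adaptor encoded by Fcer1g. Clec4e stood at 253, 371 and 228 scaled counts in BM, 167, 256 and 195 in Spleen, and 269, 559 and 644 in Lung. It stood at 28.8, 45.9 and 72.7 in Intestine and 194, 1132 and 647 in Skin, against 501, 483 and 454 in Blood. The Intestine libraries again lay below all others, while 2 of the 3 Skin libraries and 2 of the 3 Lung libraries lay above every Blood library. Clec4e fell in Intestine relative to Blood, with a log2 difference of -3.36 (SE 0.53, limma adjusted p = 0.000101). In Skin the difference from Blood was 0.12 (SE 0.53, limma adjusted p = 0.938), with Skin the highest tissue on average and the groups overlapping.

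Clec4d stood at 275, 704.5 and 268 scaled counts in BM, 328, 363 and 551 in Spleen, and 135, 327 and 748.5 in Lung. It stood at 3.46, 35.3 and 49.3 in Intestine and 99.1, 1997.5 and 640.2 in Skin, against 655, 730.5 and 739 in Blood. Intestine lay below all other libraries, and the Skin libraries spanned a 20.2-fold range while Blood spanned 1.13-fold. Clec4d fell in Intestine relative to Blood, with a log2 difference of -5.14 (SE 0.88, limma adjusted p = 2e-04), the largest of the 8 differences in that comparison. Both genes were lower in Intestine than in each of the other 5 tissues, and for both no neighbours in the order of the other 5 differed beyond their spread. The call for Clec4d in Lung minus Intestine (log2 difference 4.0, SE 0.88, limma adjusted p = 0.00653) was lost without Lung replicate 3 (adjusted p = 0.0647) and without Intestine replicate 1 (adjusted p = 0.0527).

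Clec4n encodes Dectin-2, a receptor for fungal mannans that also pairs with the Fcer1g adaptor. It stood at 26.0, 82.7 and 60.7 scaled counts in BM, 62.7, 37.6 and 37.3 in Spleen, and 44.6, 33.6 and 72.7 in Lung. It stood at 25.1, 17.8 and 33.2 in Intestine and 38.8, 53.0 and 92.5 in Skin, against 41.8, 35.0 and 47.4 in Blood. Although all 3 Intestine libraries lay below the 3 of Blood, none of the 15 pairs of tissues passed the test for Clec4n, and the difference of Intestine from Blood was -0.72 on the log2 scale (SE 0.58, limma adjusted p = 0.394).

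Clec5a encodes MDL-1, an activating receptor that signals through the adaptors encoded by Tyrobp and Hcst. It stood at 595, 468 and 434 scaled counts in BM, 131, 184 and 170.2 in Spleen, and 130.0, 126 and 212 in Lung. It stood at 18.6, 27.3 and 41.6 in Intestine and 4.19, 115 and 182 in Skin, against 224, 258 and 316 in Blood. All BM libraries lay above all others, Intestine and Skin overlapped, and no Intestine or Skin library reached the lowest Blood library. Clec5a fell in Intestine relative to Blood, with a log2 difference of -3.21 (SE 0.82, limma adjusted p = 0.0061). It also fell in Skin relative to Blood, with a difference of -2.46 (SE 0.82, limma adjusted p = 0.0448), a call lost in 23 of 32 alternatives, among them each one that left out a single BM, Spleen, Lung, Intestine or Blood library or Skin replicate 1 (adjusted p up to 0.181). Clec5a was higher in BM than in Intestine and Skin, by 4.11 and 3.37 on the log2 scale (SE 0.82 each, limma adjusted p = 0.000878 and 0.00733).

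Clec12a encodes MICL, an inhibitory receptor that senses uric acid crystals and dead cells. It stood at 428, 453 and 372 scaled counts in BM, 136, 142 and 138 in Spleen, and 137, 63.6 and 209 in Lung. It stood at 83.4, 17.2 and 14.2 in Intestine and 2.70, 11.04 and 62.4 in Skin, against 70.9, 109 and 182 in Blood. All BM libraries lay above all others, and all Skin libraries lay below the Blood libraries. Clec12a fell in Skin relative to Blood, with a log2 difference of -3.0 (SE 0.79, limma adjusted p = 0.0134), a call lost without Skin replicate 1 (adjusted p = 0.0581) and without Blood replicate 3 (adjusted p = 0.0676). It was higher in BM than in Intestine and Skin, by 3.87 and 4.88 (SE 0.79 each, limma adjusted p = 0.00108 and 0.000323), and these 2 calls held in all 32 alternatives. Its difference of Intestine from Blood, -1.98 (SE 0.79), missed the threshold with an adjusted p of 0.07 and passed in 8 of 32 alternatives.

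Clec4a2 encodes DCIR1, an inhibitory receptor of myeloid cells. It stood at 349.5, 342 and 180.0 scaled counts in BM, 55.7, 62.6 and 90.2 in Spleen, and 29.6, 53.3 and 110.3 in Lung. It stood at 42.5, 17.5 and 30.3 in Intestine and 0.0736, 65.7 and 124 in Skin, against 124, 83.1 and 165 in Blood. Skin replicate 1 held an estimated count of 0, which allows up to 0.515 scaled counts, counting error only. BM lay above all other libraries. Clec4a2 was higher in BM than in Intestine, by 3.25 (SE 1.08, limma adjusted p = 0.033), and than in Skin, by 3.75 (SE 1.08, limma adjusted p = 0.0206). The first call was lost without any 1 BM library (adjusted p = 0.0514 to 0.101) and without Intestine replicate 2 or 3 (0.11 and 0.0708), and the second without BM replicate 1 or 2 or Skin replicate 1 (0.0663, 0.0701 and 0.0563). Of the 20-base words in its transcripts 16.1% also occur in other genes, 7.59% in Clec4b1, so reads may be split between these copies and its values are uncertain.

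Clec2d encodes the ligand Clr-b, which is recognised by inhibitory NK cell receptors of the Klrb1 family. It stood at 43.2, 0.0571 and 28.4 scaled counts in BM, 87.4, 65.3 and 4.34 in Spleen, and 45.9, 30.1 and 3.52 in Lung. It stood at 28.2, 0.0415 and 3.88 in Intestine and 45.7, 35.7 and 4.56 in Skin, against 6.40, 18.9 and 7.63 in Blood. In every tissue other than Blood, a library with 28.2 or more scaled counts stood beside one with 4.56 or less, and every pair of tissues overlapped. BM replicate 2 and Intestine replicate 2 held estimated counts of 0, which allow up to 0.400 and 0.290 scaled counts. The SD within tissues was 2.09 on the log2 scale, against a median of 1.05 over all genes tested, and no pair of tissues passed. Shared words made up 26.0% of the Clec2d transcripts, 12.6% with Clec2i, so these values too are uncertain.

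Set against Blood, 4 of the 8 receptors fell in Intestine: Clec4d, Clec4e, Clec7a and Clec5a. These 4 are activating, but so is Clec4n, which was not called, and a difference between activating and inhibitory receptors was not tested. Lower calls made up 10.1% of all tested genes in that comparison. None of the 4 calls was lost in 32 alternatives, in which their log2 differences ranged from -5.80 to -2.63. For 6 of the 8 receptors the 3 Intestine libraries all lay below the 3 of Blood, while 50.1% of all genes had ranges that did not overlap in one direction or the other. The 11 neutrophil markers differed from Blood by -5.92 to -2.95, a range that holds these 4 receptors, while Clec4a2, Clec12a, Clec2d and Clec4n, at -2.04, -1.98, -1.03 and -0.72, lay above the highest marker. With only the 6 libraries of Intestine and Blood in the fit, Clec4a2 (adjusted p = 0.00211) and Clec12a (adjusted p = 0.0239) were called too. No share of all genes is given for that fit, so the added calls are not read as a result about the receptors.

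In Skin, 2 of the 8 receptors were called lower than in Blood, Clec12a and Clec5a, against 10.4% of all genes called lower. With only the 6 Skin and Blood libraries in the fit Clec12a (adjusted p = 0.135) and Clec5a (adjusted p = 0.253) missed the threshold, and over fits without 1 library the count of called receptors ran from 0 without Skin replicate 1 to 4 without Skin replicate 2. The neutrophil markers differed from Blood by -5.39 to -1.71. Clec12a, Clec4a2 and Clec5a, at -3.0, -2.53 and -2.46, lay inside that range. Clec7a, Clec4d, Clec4e, Clec4n and Clec2d, at -1.03, -0.49, 0.12, 0.48 and 0.97, lay above it, although none of these 5 differed from Blood by the test. The Skin libraries also spread most about their tissue mean over all genes (root mean square 1.31 to 1.66 on the log2 scale, against 0.535 to 0.976 in the other tissues).

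**Figure D2:**
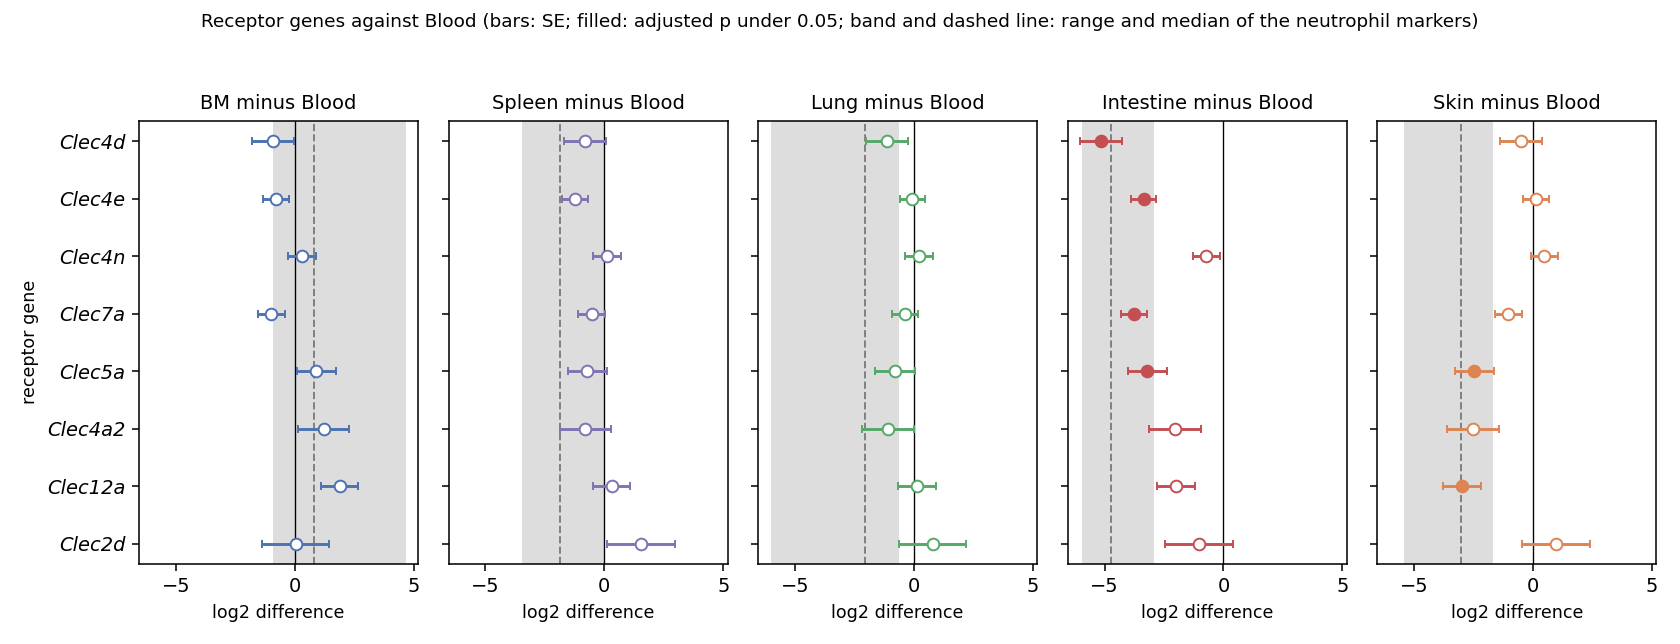
Log2 differences of the 8 receptor genes against Blood in 5 tissues; bars are standard errors, filled points have an adjusted p under 0.05 by limma, and the grey band and dashed line give the range and median of 11 neutrophil markers. The 4 called receptors lie inside the marker band in Intestine, and Clec4d, Clec4e and Clec7a lie right of it in Skin.

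In BM, no receptor was called against Blood by limma over the 18 libraries, where 0.204% of all genes were called in either direction, and 1 of 8 had an unadjusted p under 0.05. Clec12a, Clec4a2 and Clec5a had the highest differences, 1.88 (SE 0.79), 1.22 (SE 1.08) and 0.90 (SE 0.82), and Clec7a, Clec4d and Clec4e the lowest, -0.98 (SE 0.55), -0.92 (SE 0.88) and -0.79 (SE 0.53). For 5 receptors the BM and Blood libraries did not overlap, as for 19.3% of all genes. When only these 6 libraries were fitted, 4 receptors were called, and 3.93% of all genes. Clec12a (adjusted p = 0.00302), Clec5a (adjusted p = 0.0449) and Clec4a2 (adjusted p = 0.0453) were then higher in BM, and Clec7a (adjusted p = 0.0328) was lower. With the Intestine and Skin libraries left out of the full fit, Clec12a was called higher in BM (adjusted p = 0.0142).

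Spleen and Lung gave no call against Blood either, where 0.607% and 6.29% of all genes were called in either direction; 1 receptor in Spleen and none in Lung had an unadjusted p under 0.05. In Spleen, Clec4e lay below Blood in all 3 libraries, with a difference of -1.24 (SE 0.53, limma adjusted p = 0.565). With only the 6 libraries of Spleen and Blood, Clec4e (adjusted p = 0.00322) and Clec4d (adjusted p = 0.0392) were called lower in Spleen, while 9.22% of all genes were called in either direction. Clec4e was also called lower in Spleen with the Intestine and Skin libraries left out of the full fit (adjusted p = 0.0453).

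Among the tissues other than Blood, the calls fell on the pairs with Intestine or Skin. BM was higher than Intestine for 6 receptors (8.84% of all genes), all but Clec4n and Clec2d, and higher than Skin for Clec5a, Clec4a2 and Clec12a (17.5% of all genes called in either direction). Spleen was higher than Intestine for 5 receptors (6.91%) and higher than Skin for Clec12a alone (9.18%). The Spleen calls against Intestine for Clec12a (adjusted p = 0.0497) and Clec5a (adjusted p = 0.039) were lost in 21 and 10 of 32 alternatives, including the removal of any 1 Spleen library. Lung was higher than Intestine for Clec4d, Clec4e and Clec7a (3.29%), and higher than Skin for Clec12a alone (6.28%), which was lost without Lung replicate 1 or 3 (adjusted p = 0.0629 and 0.0735). Intestine was lower than Skin for Clec4d, Clec4e and Clec7a (5.05%), calls lost when only the 6 libraries of Intestine and Skin were fitted (adjusted p = 0.0665, 0.0583 and 0.0706). No receptor was called by limma between BM and Spleen, BM and Lung or Spleen and Lung, where 0.297%, 6.18% and 4.46% of all genes were called in either direction. The unadjusted p was under 0.05 for 0, 2 and 1 receptors in these 3 pairs.

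The receptors differed in pattern as well as in level. The ratio of 2 genes within a library does not depend on the scaling of that library, though its size also reflects gene length. The pairs were chosen after the values were seen and were not tested. Clec4e over Clec5a was 0.425, 0.794 and 0.525 in BM, 1.28, 1.39 and 1.14 in Spleen, and 2.07, 4.43 and 3.03 in Lung. It was 1.55, 1.68 and 1.75 in Intestine and 46.2, 9.82 and 3.56 in Skin, against 2.24, 1.87 and 1.44 in Blood. BM lay below every other library, Skin replicates 1 and 2 above every other library, and the Intestine values lay within the Blood range. Clec4e over Clec12a was 71.6, 103 and 10.4 in Skin, against 7.07, 4.45 and 2.49 in Blood, with no overlap.

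**Figure D3:**
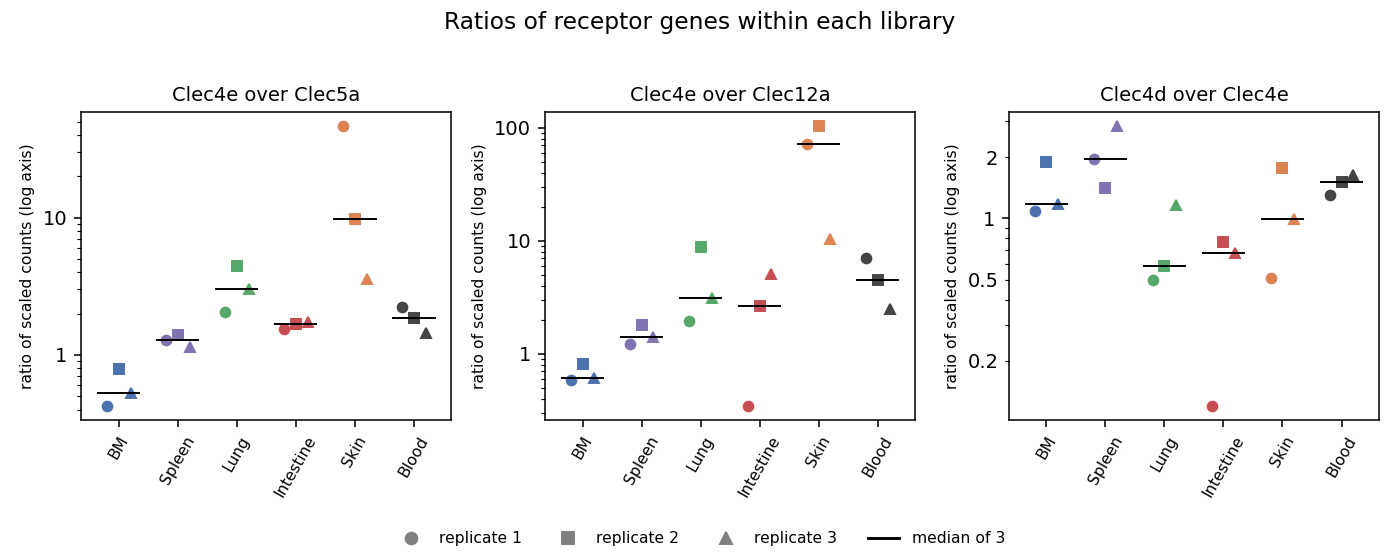
Ratios of scaled counts of receptor genes within each library (log axes), with 1 symbol per replicate and a line at the median of 3. Clec4e over Clec5a is under 1 in the 3 BM libraries and 3.56 to 46.2 in Skin, while Intestine and Blood overlap.

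Over the 18 libraries, Clec4d, Clec4e and Clec7a varied together (Pearson r of log2 values 0.868 to 0.919), and so did Clec5a, Clec4a2 and Clec12a (0.823 to 0.918). Correlations between these 2 sets ran from 0.176 for Clec4e with Clec12a to 0.698 for Clec7a with Clec5a. Clec4n had r of 0.613 and 0.622 with Clec4d and Clec4e, and Clec2d had -0.216 to 0.177 with the others. These are descriptions of libraries that share tissue and depth. Without the 3 Skin libraries, r was 0.866 to 0.912 within the first set and 0.81 to 0.864 within the second. Between the sets, Clec5a then had r of 0.772 to 0.848, and the highest, with Clec4d, lay inside the range of the second set. Clec4a2 and Clec12a stayed lower, with r of 0.516 to 0.657 with the first set.

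**Figure D4:**
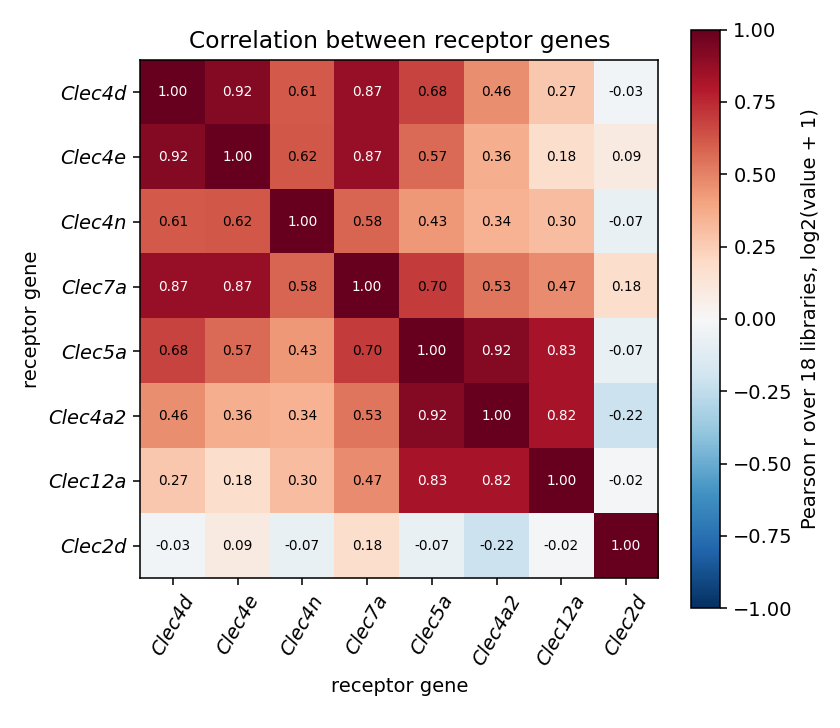
Pearson correlation of log2(value + 1) between the 8 receptor genes over the 18 libraries. Clec4d, Clec4e and Clec7a form one set with r of 0.868 or more, Clec5a, Clec4a2 and Clec12a another with 0.823 or more, and Clec2d follows neither; without the Skin libraries r between the sets reaches 0.848.

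Among 8763 protein-coding genes, those whose pattern over the 18 libraries was most like each receptor were Mxd1, Cytip and Il1f9 for Clec4d (r of 0.962, 0.947 and 0.945) and Plek, Il1rn and Srgn for Clec4e (0.963, 0.945 and 0.944). For Clec7a they were Btg1, Tpd52 and Stk17b (0.973, 0.97 and 0.966). The genes most like Clec5a were Fpr2, Retnlg and Mmp9 (0.968, 0.966 and 0.961), and most like Clec4a2 were Mmp8, Cyfip2 and Pik3cg (0.953, 0.928 and 0.926). Fpr2 encodes a formyl peptide receptor, and Mmp8 and Mmp9 encode neutrophil granule proteases. Eif1b, Ccdc125 and Maea were most like Clec12a (0.959, 0.947 and 0.931). Clec4n and Clec2d had no gene as close: the highest r was 0.768 with Pik3ap1 and 0.821 with Hnrnpdl. With the Skin libraries left out, 8 of the 24 genes so named came up again.

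The adaptors and first kinases that serve these receptors were measured beside them. Fcer1g, the adaptor of Clec4e, Clec4d and Clec4n, stood at 13.9, 20.0 and 21 scaled counts in Intestine and 92.5, 1096 and 224 in Skin, against 274, 288 and 250.3 in Blood. It fell in Intestine relative to Blood, with a log2 difference of -3.84 (SE 0.63, limma adjusted p = 0.000129). Tyrobp, the adaptor of Clec5a, stood at 47.2, 57.7 and 65.8 in Intestine and 35.2, 519 and 404 in Skin, against 965, 461 and 770.4 in Blood, and fell in Intestine, with a difference of -3.61 (SE 0.68, limma adjusted p = 0.000463). Hcst, the other adaptor of Clec5a, fell in Skin relative to Blood, with a difference of -3.54 (SE 0.87, limma adjusted p = 0.00881). Refits of single Skin calls are not given for this gene and the signalling genes below. Over all genes, calls in Skin minus Blood fell from 2597 to 109 with only the 6 libraries compared.

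Syk stood at 113, 67.0 and 109.7 scaled counts in Intestine and 147, 473 and 497 in Skin, against 823, 727 and 777 in Blood. It fell in Intestine relative to Blood, with a log2 difference of -3.03 (SE 0.48, limma adjusted p = 9.11e-05). Of 15 adaptor and proximal kinase genes, 14 passed the F test across tissues, against 31.9% of all genes. In Intestine relative to Blood, where 10.1% of all genes were called lower and 15.8% higher, 12 fell and 2 rose. Among those that fell were the Src-family kinases Fgr (-5.05) and Lyn (-3.49), the phospholipase Plcg2 (-2.36) and the kinase Prkcd (-2.11). The 2 that rose were the kinases Fyn (4.34, named after its values were seen) and Src. All 3 Blood libraries held 0 estimated counts of Src, so its fitted difference depends on the 1 added before the log. Set against the highest value that 3 counts have in a Blood library, the mean of Src was at least 26-fold higher in Intestine, and every such bound below is taken in this way. The list's median was -2.61 in Intestine and -1.25 in Skin, against 0.12 and -0.26 over all genes tested. In Skin 3 of 15 fell, Vav1, Hcst and Lyn, against 10.4% of all genes called lower. In Lung Src alone rose, against 5.27% of all genes called higher, and none was called in BM or Spleen.

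In the Card9 arm 5 of 15 genes passed the F test, a share near the 31.9% of all genes. Card9, the scaffold that links Syk to NF-kappaB, fell in Intestine relative to Blood, with a difference of -2.63 (SE 0.88, limma adjusted p = 0.0313), and Rel, an NF-kappaB subunit, fell too, at -1.22 (SE 0.44, limma adjusted p = 0.0468). Bcl10 and Malt1, the partners of Card9, were not called in Intestine, at -2.30 and -1.03. Nfkbia, an inhibitor and a target gene of NF-kappaB, rose in Lung by 3.05 (SE 0.46, limma adjusted p = 0.000277) and in Skin by 2.53 (SE 0.46, limma adjusted p = 0.00095). In Skin 2 of the 15 rose, Nfkbia and Rel (1.33), and 2 fell, the ubiquitin ligase gene Traf6 (-2.73) and the kinase complex subunit gene Ikbkg (-3.15). Of 9 calcineurin and NFAT genes 4 passed the F test, with 1 higher and 1 lower in Intestine than in Blood, and 1 higher and 3 lower in Skin. Over all genes 15.8% were called higher and 10.1% lower in Intestine, and 5.64% and 10.4% in Skin.

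The phosphatase gene Ptpn6, which serves Clec12a and Clec4a2, stood at 99.5, 74.9 and 52.7 scaled counts in Intestine and 32.7, 28.3 and 393 in Skin, against 579, 746.5 and 676 in Blood. It fell in both, with log2 differences of -3.16 and -3.19 (SE 0.65 each, limma adjusted p = 0.00107 and 0.00252). Ptpn11, the other such phosphatase gene, was not called against Blood in any tissue and differed by 0.92 in Intestine and -1.64 in Skin. Inpp5d, an inositol phosphatase, fell in Skin, with a difference of -2.31 (SE 0.65, limma adjusted p = 0.0196). Of 8 inhibitory genes tested, 6 passed the F test, against 31.9% of all genes. Tnfaip3, a brake on NF-kappaB, rose in Lung by 5.17, in Intestine by 1.53 and in Skin by 4.35 (SE 0.46 each, limma adjusted p = 2.86e-06, 0.0166 and 4.57e-06).

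Of 14 inflammasome and output genes tested, 8 passed the F test, against 31.9% of all genes. In Lung, where 5.27% of all genes were called higher than in Blood, 6 rose: Il1a (5.60), Ptgs2 (5.26), Cxcl2 (4.71), Tnf (3.90), Il23a (3.58) and Cxcl1. In Skin, where 5.64% of all genes were called higher and 10.4% lower, 5 rose, among them Cxcl2 (4.85), Ptgs2 (4.48) and Cxcl1, and Casp8 fell. Cxcl1, a chemokine gene with 0 estimated counts in all 3 Blood libraries, was at least 62.9-fold higher in Lung and at least 246-fold higher in Skin, or 44-fold without Skin replicate 1. In Intestine, where 10.1% of all genes were called lower and 15.8% higher, Nlrp3, Il1b and Casp1 fell and Il1a rose. The list's median was 2.58 in Lung, 0.29 in Intestine and 1.13 in Skin, against 0.03, 0.12 and -0.26 over all genes, while no receptor of the 8 was called in Lung minus Blood. With the 3 genes at 0 in Blood set to their bounds the list's medians were 3.43 in Lung, 0.258 in Intestine and 1.13 in Skin. Epithelial and keratinocyte markers summed to 257 to 2379 scaled counts in Lung and 601 to 7970 in Skin, against 1.03 to 51.5 in Blood. The highest Skin sum was that of replicate 1. Fibroblast markers summed to 158 to 1117 in Lung and 1084 to 4120 in Skin, against 29.6 to 57.0 in Blood. Their part in the rises in Lung and Skin was not tested.

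**Figure D5:**
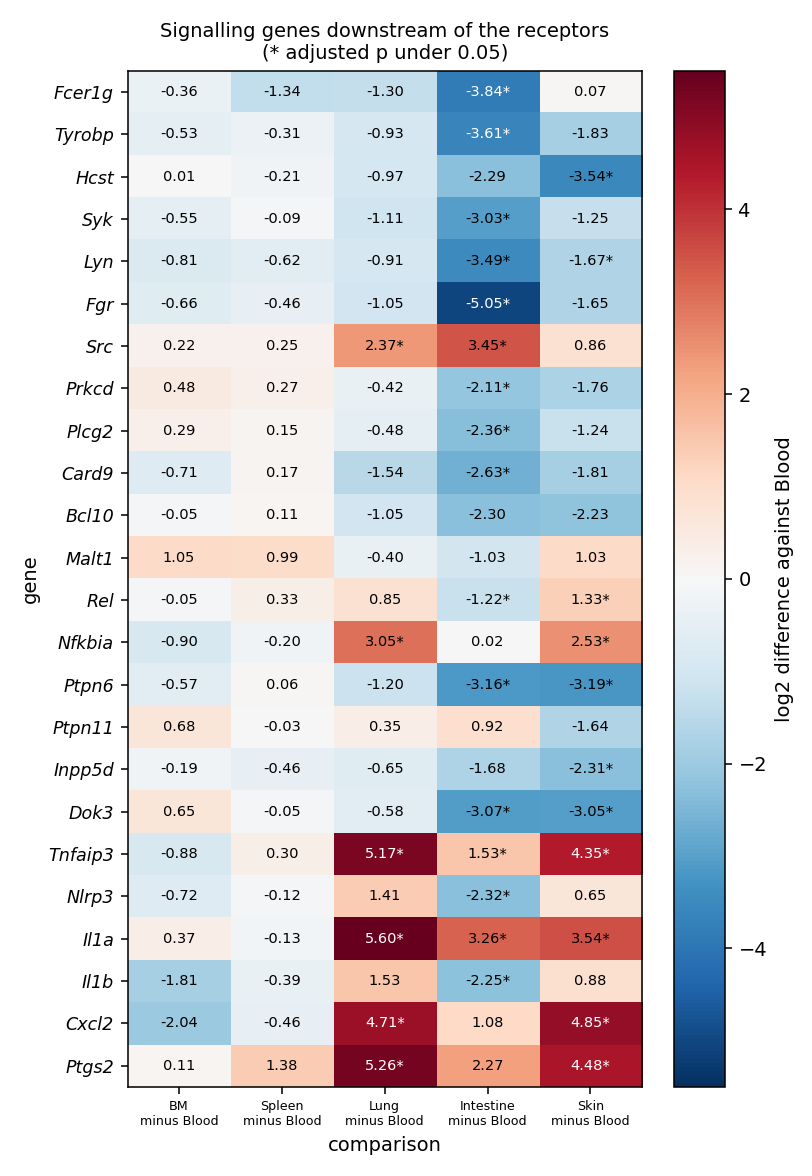
Log2 differences against Blood, with 1 row per gene of the adaptor, kinase, Card9, inhibitory and output lists and 1 column per tissue; an asterisk marks an adjusted p under 0.05 by limma. Fcer1g, Syk, Lyn and Fgr are lower in Intestine, and Tnfaip3, Il1a, Cxcl2 and Ptgs2 are higher in Lung and Skin.

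Several other genes with a C-type lectin domain were higher in Intestine and Skin than in Blood. Of 28 tested, 11 passed the F test, as did 31.9% of all genes. Relative to Blood 7 rose and 1 fell in Intestine and likewise in Skin, where 15.8% and 5.64% of all genes were called higher. Mrc1, the macrophage mannose receptor, stood at 468, 283 and 537 scaled counts in Intestine and 459, 1912 and 673 in Skin, against 1.50, 0.599 and 0.781 in Blood. It rose in each of the 5 tissues relative to Blood, by 3.86 (BM), 3.89 (Spleen), 5.40 (Lung), 7.76 (Intestine) and 8.77 (Skin) on the log2 scale (SE 0.70 each, limma adjusted p = 0.0128, 0.00836, 7.35e-05, 4.02e-07 and 1.93e-07). Mgl2 and Clec10a, lectins of macrophages and dendritic cells, rose in Intestine and in Skin, and Clec14a, a lectin of endothelial cells, rose in Lung. All 3 genes had 0 estimated counts in every Blood library. Mgl2 was at least 45.7-fold higher in Lung, 124-fold in Intestine and 239-fold in Skin, and Clec10a at least 17.3-fold in Intestine and 265-fold in Skin. Clec14a was at least 481-fold higher in Lung, 142-fold in Intestine and 20.6-fold in Skin. The bound was 10.9-fold for Clec10a without Intestine replicate 1, 136-fold without Skin replicate 2, and 13.1-fold for Mgl2 without Lung replicate 1. For Clec14a it was 308-fold without Lung replicate 1, 71.3-fold without Intestine replicate 2 and 13.4-fold without Skin replicate 3. Ly75, a dendritic cell lectin, fell in both, with differences of -2.05 in Intestine and -3.43 in Skin. Endothelial markers summed to 658 to 2324 scaled counts in Lung and 483.5 to 1219 in Intestine, against 28.9 to 49.9 in Blood. Their part and that of the macrophage markers, a list that includes Mrc1 itself, in these values was not tested.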

How the data were processed

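Per the labels' protocols, cDNA of the sorted neutrophils was amplified (Ovation Single Cell system) and sequenced as 61-nt single-end reads. The submitters' processing notes name CASAVA, RSEM 1.3.1 and limma on mm10, with no order or annotation. The deposited table is named TPM, but its signal values, made by the authors, carry no gene length: as read from the values, each is an estimated count plus 0.5 over the effective library size plus 1, times 1e6. Symbols came from GENCODE vM21.

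Genes with at least 1 in 3 libraries (16157) entered a limma 3.58.1 fit (R 4.3.3) of 6 group means on log2(value + 1), with a trended prior, 12 residual degrees of freedom and Benjamini-Hochberg adjustment over all of them. The +1 understates changes of low genes. The tests were an F test and 15 pairwise contrasts. The fixed design assumed TPM; the same test was kept. It was tested on simulated data. The genes named were all members, 12 fixed signalling genes, of each list up to 6 with the smallest adjusted p, by the F test or a contrast with Blood, and the 3 most similar genes per member. Members and lists were chosen with earlier results of these data known. Promoters came from RefSeq, and figures were drawn with matplotlib.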

Additional observations from a re-analysis of the deposited data

How the results depend on the processing

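Of 33 calls of single receptors, 94 of 1058 refits fell short of the threshold and none changed direction, while 95 results that were not called passed in the same direction in 86 of 3134 refits and in the opposite one in 1. The replicate block left every count of called receptors unchanged (5 by the F test, 4 in Intestine, 2 in Skin, 0 elsewhere). Of 45 correlations between same-numbered deviations 1 was over 0.1, and 7 of 18 libraries correlated best with their own number. With deviations from means of 3 libraries, these values cannot tell whether same-numbered libraries share a mouse. Members called by the F test fell to 1 without the Intestine libraries, where calls over all genes fell from 5159 to 2685. Leaving out Intestine and Skin gave 4 by the F test and 1 each in BM and Spleen minus Blood, with no share of all genes given for that fit. Both alternatives were chosen after seeing the data. With only the 6 libraries compared, 4 were called in BM, 2 in Spleen and 0 in Skin, and with a weight per library 2, 1 and 0. In Skin minus Blood 1 was called with no pseudocount, no filter, median ratio scaling, a prior without trend, or without Intestine, and leaving out single libraries gave 0 to 4, against 4 to 6 in Intestine. Clec4a2 in Intestine minus Skin turned to -1.64 (limma adjusted p = 0.0421) without Skin replicate 1, where its estimated count was 0, and leaving out single libraries gave up to 1.79. Over all genes, calls by the F test ranged from 2685 to 8306 (5159 as reported), in BM minus Blood from 11 to 578 (33), in Spleen minus Blood from 23 to 1725 (98), in Lung minus Blood from 463 to 4626 (1017), in Intestine minus Blood from 3018 to 7482 (4196) and in Skin minus Blood from 109 to 3530 (2597). Other scalings moved the median of all genes in Intestine minus Blood by -0.29 (quantile) to 0.42 (median ratio), less than the 4 receptor differences called there. With 3 libraries per tissue and 1 spread per gene, uncalled receptors may still differ.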
